A study of Mus musculus with 18 samples.

Results

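Apolipoproteins and the proteins that load, remodel and break down lipoproteins were followed here through 10 genes of mouse liver. The genes were Apoa1, Apoa2, Apoa4, Apoa5, Apob, Apoc3, Mttp, Lcat, Lipc and Angptl4. They were chosen by symbol, with earlier results of these data known. All 10 were among the 21441 genes listed in the liver table. The study asked how moringa isothiocyanate-1 (MIC-1), an isothiocyanate from seeds of Moringa oleifera, alters the response to lipopolysaccharide (LPS), the outer membrane component of Gram-negative bacteria. RNA-seq was available for 18 libraries, 9 of liver and 9 of RAW264.7 cells, a macrophage-like mouse line, with 3 libraries in each group. The livers came from wild type male C57BL/6 mice, in groups stated as 6 animals, of which 3 per group were sequenced. Control mice received a saline injection, LPS mice 10 mg/kg LPS by intraperitoneal injection, and LPS+MIC-1 mice were given MIC-1 (80 mg/kg, in 10% DMSO) by mouth over 3 days ahead of the same LPS dose. Per the published description, mice not given MIC-1 were gavaged with vehicle, named as 10% DMSO for the controls. Tissue was taken 16 h after the injection, and no group received MIC-1 alone. The macrophage groups carry the same names. Their labels repeat the doses of the mice, whereas the design text of the series gives 10 µM MIC-1. The table holds 3 macrophage LPS libraries, whereas the published description counts 2, and no label says which was set aside.

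The liver exports triglyceride on very low density lipoproteins, each built on a single apolipoprotein B molecule that the microsomal triglyceride transfer protein (Mttp) lipidates in the endoplasmic reticulum. It also makes most of the plasma apolipoprotein A-I and A-II, the main proteins of high density lipoprotein (HDL), on which lecithin-cholesterol acyltransferase (Lcat) esterifies cholesterol. Infection and LPS are known to raise plasma triglyceride and to change the protein make-up of HDL. Clearance of triglyceride from the particles is held back by apolipoprotein C-III and by angiopoietin-like 4 and is promoted by apolipoprotein A-V.

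Of the genes 4 lie side by side. On mouse chromosome 9 of build NCBIM37 (mm9) Apoa1 (46036663 to 46038549, plus strand), Apoc3 (46041016 to 46043719, minus strand), Apoa4 (46048779 to 46051542, plus strand) and Apoa5 (46076716 to 46080002, plus strand) span 43.3 kb. Lipc is on the same chromosome (70645936 to 70800033, minus strand). Apoa2 lies on chromosome 1 (173155185 to 173156510, plus strand), Mttp on chromosome 3 (137752819 to 137806352, minus strand) and Lcat on chromosome 8 (108463451 to 108467282, minus strand). Apob is on chromosome 12 (7984454 to 8023641, plus strand) and Angptl4 on chromosome 17 (33910695 to 33918520, minus strand).

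The promoters of 4 members are shown because 3 are neighbours in this cluster, of which Apoa4 was called in both comparisons with control and Apoa1 and Apoa5 in neither, and Lcat, elsewhere in the genome, was higher in every treated library. The sequences are the 250 bases before the RefSeq start site, from build GRCm38.p6, written 5′ to 3′ on the strand of the gene. Capitals mark matches, on either strand, to CAAAGTNCA (a core of the HNF4 site), TTCNNNGAA (the STAT pattern), TTGCNNAA (the C/EBP pattern), the TATA box TATAAA or the Rel pattern. The Rel pattern was taken as 3 guanines, 5 bases of any kind and 2 cytosines, and where its matches overlap the capitals run together. Apoa4 at chr9:46240594-46240843 and Apoa1 at chr9:46228380-46228629 are on the plus strand, as is the first of the listed starts of Apoa5 at chr9:46268358-46268607, and Lcat at chr8:105943403-105943652 is on the minus strand.
Apoa4: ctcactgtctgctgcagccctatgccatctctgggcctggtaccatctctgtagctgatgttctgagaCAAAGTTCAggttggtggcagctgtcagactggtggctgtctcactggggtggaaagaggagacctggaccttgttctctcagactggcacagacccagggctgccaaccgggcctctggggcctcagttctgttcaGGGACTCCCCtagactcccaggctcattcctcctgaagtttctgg
Apoa1: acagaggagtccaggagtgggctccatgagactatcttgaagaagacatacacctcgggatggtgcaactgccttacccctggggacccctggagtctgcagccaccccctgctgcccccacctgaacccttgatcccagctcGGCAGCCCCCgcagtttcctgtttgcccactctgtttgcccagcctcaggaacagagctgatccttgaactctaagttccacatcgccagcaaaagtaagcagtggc
Apoa5: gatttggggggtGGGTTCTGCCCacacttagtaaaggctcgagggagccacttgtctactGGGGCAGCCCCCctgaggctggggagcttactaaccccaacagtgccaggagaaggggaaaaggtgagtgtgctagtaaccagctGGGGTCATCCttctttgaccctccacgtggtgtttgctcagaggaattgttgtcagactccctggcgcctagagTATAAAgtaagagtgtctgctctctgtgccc
Lcat: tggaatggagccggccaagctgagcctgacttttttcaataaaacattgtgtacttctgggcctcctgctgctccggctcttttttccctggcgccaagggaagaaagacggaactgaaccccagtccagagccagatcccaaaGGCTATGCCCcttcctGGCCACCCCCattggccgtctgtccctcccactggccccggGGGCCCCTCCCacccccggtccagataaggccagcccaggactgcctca
Apoa4 held an HNF4 core 182 to 174 bases before its start, a match found in 1.19% of 32851 promoter windows of this length. The Rel pattern matched all 4 sequences and 45.8% of all windows. The TATA box matched Apoa5, 31 to 26 bases before its start, and 12.4% of all windows. The STAT and C/EBP patterns, held by 7.02% and 9.56% of windows, were not matched in the 4 sequences, which says only that these letters are not in these windows. Among the members not shown, Apoa2 and Apob held the C/EBP pattern. Promoters were matched for 8 of the 10 members, and Apoc3 and Angptl4 had none.

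Values are FPKM (fragments per kilobase of transcript, scaled to the reads of a library), with size factors applied between libraries by the authors. A difference is given as Log2FC, the difference between group means of log2(FPKM + 0.5), with its standard error (SE), and a gene was called where limma's adjusted P-value was below 0.05. The columns carry no replicate number, so libraries are numbered by their order in the table, and P-values measure the spread between these libraries, which in liver stand for separate mice and in macrophages may be technical. In each liver group the library least correlated with the other 2 over the 10147 tested genes was set apart. This rule picks 1 library in every group. Control library 1 had a mean r of 0.896 with its group, against 0.917 and 0.908 for control libraries 2 and 3. LPS library 2 was at 0.890, against 0.933 and 0.936. LPS+MIC-1 library 2 was at 0.933, against 0.957 and 0.955. LPS library 2 correlated with the control libraries (mean r = 0.874) nearly as closely as with the other LPS libraries. The libraries set apart differed from the rest of their groups partly along a shared direction. The within-group differences, taken as control library 1 minus libraries 2 and 3 and as libraries 1 and 3 minus library 2 in each treated group, correlated across genes at r = 0.313 to 0.324 between groups, a description over genes that are not independent. The P-values take no account of it, and its part in the results was not tested beyond leaving libraries out. The FPKM value of a single read on 1 kb of transcript, read from the steps between low values, ranged from 0.0596 to 0.176 and was highest in control libraries 2 and 3, which were therefore the shallowest. The hepatocyte markers Alb and Ttr were among the most abundant transcripts of every liver library, at no less than 13740 and 2303 FPKM.

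LPS raised 3 of the 10 genes in liver and lowered none. Apoa4, which encodes an apolipoprotein of triglyceride-rich particles and HDL, rose 16.9-fold, Angptl4, the lipoprotein lipase inhibitor, 3.39-fold and Lcat 1.94-fold by the ratio of mean FPKM. Of all 10147 tested genes 34.7% were called, 19.2% higher and 15.5% lower, and 48.2% had an unadjusted P-value below 0.05, as did 5 members. The other 7 members did not pass, with Log2FC from -0.997 for Apoa2 to 0.84 for Apob, apart from Lipc, whose zeros give no usable fold. FPKM ranges of the groups did not overlap for the same 3 members, all higher, against 45% of all tested genes, 24.2% higher and 20.8% lower. The counts depended on LPS library 2. Without it 5 members were called higher, with Apoa5 and Apob added, and 2 lower, Apoa1 and Apoa2, while 49% of all tested genes were called in that fit.

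**Figure D1:**
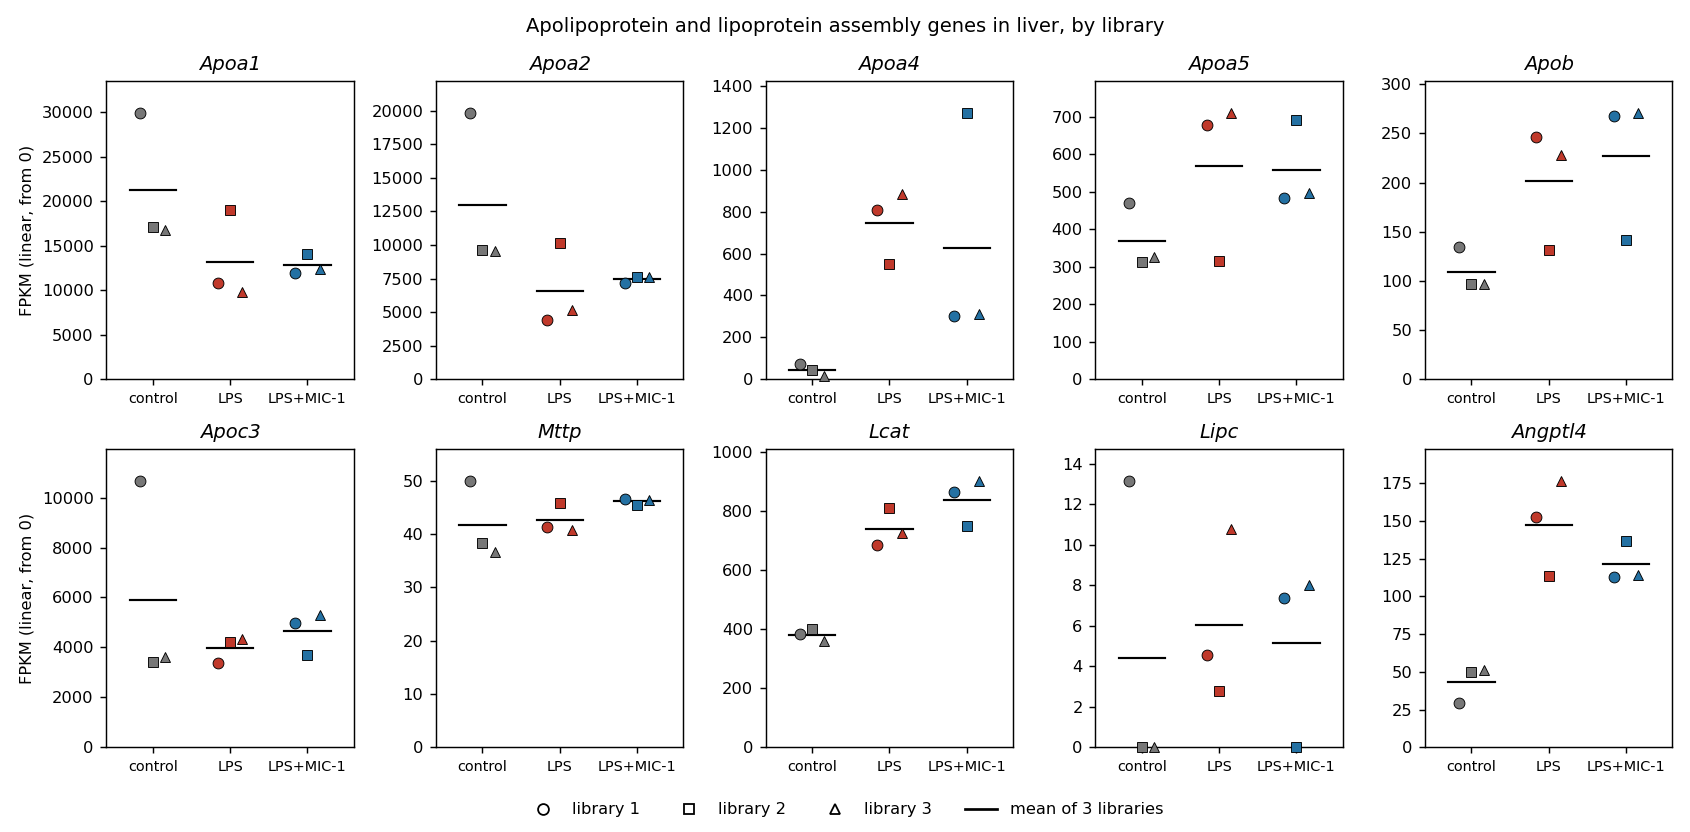
FPKM of the 10 genes in the 9 liver libraries, each panel on a linear axis from 0, with circles, squares and triangles for libraries 1, 2 and 3 of a group and bars for the mean of 3 libraries. All LPS and LPS+MIC-1 libraries lie above all control libraries for Apoa4, Lcat and Angptl4, and control library 1 is the highest of the 9 for Apoa1, Apoa2, Apoc3, Mttp and Lipc.

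Apoa1 and Apoa2 encode the main HDL proteins and were the most abundant members. Apoa1 was at 29941, 17154 and 16833 FPKM in control libraries 1 to 3, at 10794, 19047 and 9856 in LPS libraries and at 11911, 14095 and 12458 in LPS+MIC-1 libraries. Only LPS library 2 reached the control range. The Log2FC of LPS against control was -0.70 (SE 0.35, adjusted P-value 0.148). By mean FPKM Apoa1 ranked 4 of the 21441 listed genes in control, 10 with LPS and 15 with LPS+MIC-1.

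Apoa2 was at 19834, 9644 and 9524 FPKM in control, at 4403, 10134 and 5135 with LPS and at 7186, 7588 and 7600 with LPS+MIC-1. Its pattern was that of Apoa1, with LPS library 2 again inside the control range and the 3 LPS+MIC-1 libraries close together. The Log2FC of LPS against control was -0.997 (SE 0.40, adjusted P-value 0.0826). Without LPS library 2 it was -1.36 (adjusted P-value 0.0179), and that of Apoa1 was -0.99 (adjusted P-value 0.0378). LPS+MIC-1 against control gave -0.68 (adjusted P-value 0.156) for Apoa1 and -0.71 (adjusted P-value 0.189) for Apoa2, although the ranges of both groups did not overlap for either gene.

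Albumin (Alb), another abundant hepatocyte product, gives a comparison within each library but was not constant. It ran from 13740 FPKM in LPS+MIC-1 library 2 to 35991 in control library 1. Apoa1 stood at 832 to 1052 per 1000 of Alb in control libraries, at 560, 1045 and 545 in LPS libraries and at 551, 1026 and 563 in LPS+MIC-1 libraries. By this ratio libraries 2 of both treated groups lay in the control range and the other 4 treated libraries below it. In FPKM, Apoa1 of LPS+MIC-1 library 2 was at 14095, below the lowest control at 16833. In bulk tissue fewer cells of a type and less RNA per cell cannot be told apart.

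Lcat, the enzyme that esterifies cholesterol on HDL, was at 383, 400 and 360 FPKM in control, at 684, 811 and 726 with LPS and at 864, 748 and 903 with LPS+MIC-1. No treated library came near the control range. The Log2FC was 0.95 (SE 0.18, adjusted P-value 0.00651) for LPS and 1.13 (SE 0.18, adjusted P-value 0.00325) for LPS+MIC-1 against control. With each library left out in turn the Log2FC ranged from 0.89 to 1.01 and from 1.08 to 1.21. The call for LPS+MIC-1 was lost where every library was scaled to the same FPKM sum (Log2FC 0.48, adjusted P-value 0.0525).

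Apoa4, between Apoc3 and Apoa5 in the cluster, showed the largest difference of the 10. It was at 72.7, 42.7 and 17.6 FPKM in control, at 807, 550 and 884 with LPS and at 303, 1271 and 311 with LPS+MIC-1. All 6 treated libraries lay above all controls, and the LPS+MIC-1 group held both the highest treated library and the 2 lowest. The Log2FC was 4.25 (SE 0.65, adjusted P-value 0.00376) for LPS and 3.68 (SE 0.65, adjusted P-value 0.00500) for LPS+MIC-1 against control, ranks 46 and 70 from the highest of 10147 genes. Both calls held under all 21 alternatives, with Log2FC from 3.70 to 4.92 and from 3.00 to 4.14. Per 1000 of Apoa1 there were 1.05 to 2.49 of Apoa4 in control, 28.9 to 89.7 with LPS and 24.9 to 90.2 with LPS+MIC-1.

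Apoa4 is also an abundant product of enterocytes, so markers of these cells were read beside it. Of 6 enterocyte markers 5 stayed at or below 1 FPKM in every liver library, among them Vil1 and Sis, and Alpi was listed at 0 throughout. The exception, Fabp2, was at 21.9 to 33.0 FPKM in control, 40.5 to 73.7 with LPS and 63.2 to 121 with LPS+MIC-1. Cidec, a lipid droplet protein fixed as an adipocyte marker, was at 0 to 0.226 FPKM in control. It was at 71.7, 20.2 and 77.9 with LPS and at 4.46, 66.7 and 4.15 with LPS+MIC-1, so that its 2 lowest treated libraries were those of Apoa4. The other adipocyte markers Adipoq and Lep were listed at 0 in all libraries and Plin1 did not exceed 0.1005.

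Apoc3 and Apoa5 flank Apoa4 and have opposed roles in triglyceride clearance. Apoc3 was at 10671, 3433 and 3620 FPKM in control, at 3360, 4202 and 4349 with LPS and at 4980, 3689 and 5316 with LPS+MIC-1. The control mean rested on library 1. The Log2FC of LPS against control was -0.37 (SE 0.43, adjusted P-value 0.518), and without control library 1 it was 0.16. Apoa5 was at 470, 313 and 327 FPKM in control, at 678, 317 and 710 with LPS and at 484, 690 and 497 with LPS+MIC-1. LPS library 2 lay in the control range and the other 2 above it, and the Log2FC was 0.55 (SE 0.34, adjusted P-value 0.229) for LPS. Without LPS library 2 it was 0.93 (adjusted P-value 0.0197). For LPS+MIC-1 against control the ranges did not overlap, with a Log2FC of 0.60 (SE 0.34, adjusted P-value 0.198).

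**Figure D2:**
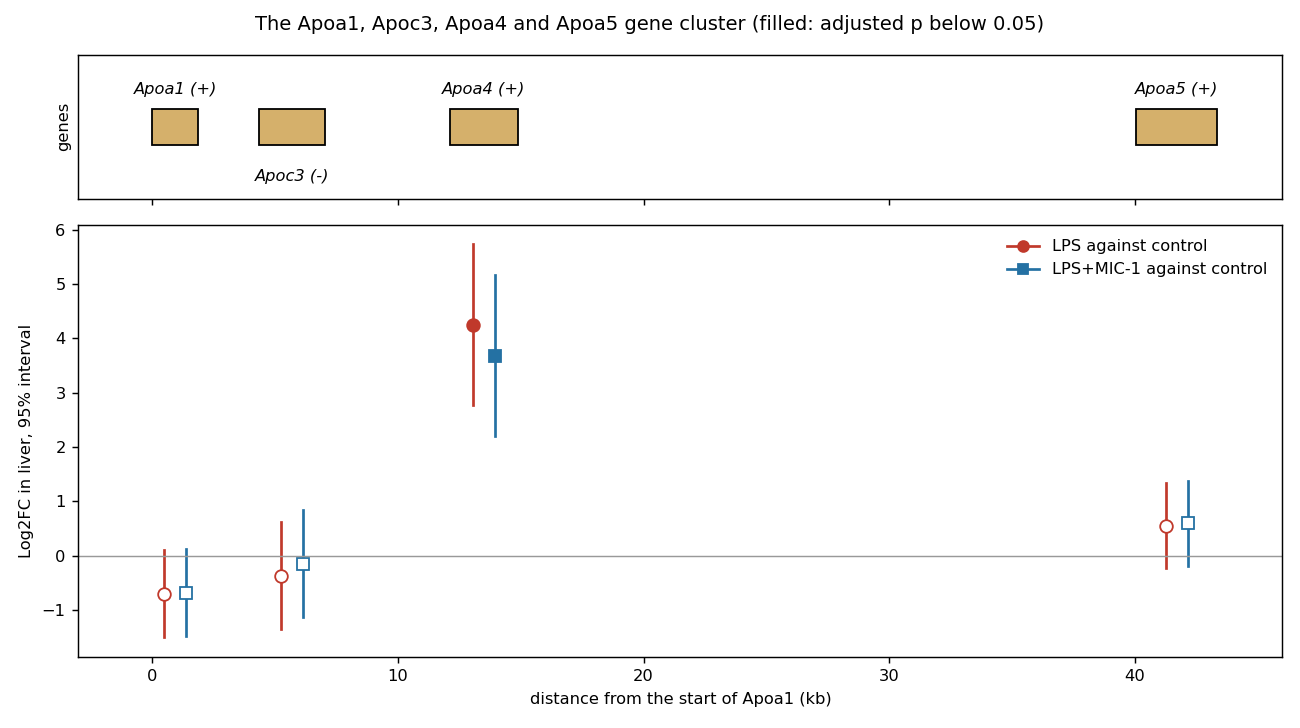
The cluster of Apoa1, Apoc3, Apoa4 and Apoa5, drawn to scale as distance in kb from the start of Apoa1, above the Log2FC of each gene in liver with its 95% interval for LPS (circles) and LPS+MIC-1 (squares) against control. Filled symbols have an adjusted P-value below 0.05, which only Apoa4 reached, at 4.25 and 3.68, while both neighbours on either side had intervals that included 0.

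Apob encodes the structural protein of very low density lipoprotein. It was at 135, 96.9 and 96.9 FPKM in control, at 247, 131 and 228 with LPS and at 268, 142 and 271 with LPS+MIC-1. Treated libraries 1 and 3 were above the controls in both groups and libraries 2 stayed close to control library 1. LPS against control gave a Log2FC of 0.84 (SE 0.34, adjusted P-value 0.0812). LPS+MIC-1 against control gave 1.00 (SE 0.34, adjusted P-value 0.0469), a call that was lost in 10 of 21 alternatives, among them both rescalings of the libraries.

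Mttp, the lipid loader of apolipoprotein B, was the steadiest member. It was at 50.02, 38.4 and 36.7 FPKM in control, at 41.4, 45.9 and 40.8 with LPS and at 46.7, 45.5 and 46.5 with LPS+MIC-1. The groups overlapped throughout, with a Log2FC of 0.05 (95% interval -0.34 to 0.43) for LPS and 0.16 (95% interval -0.22 to 0.54) for LPS+MIC-1 against control. Per 1000 of Mttp there were 2525 to 2697 of Apob in control libraries, 5955, 2855 and 5593 in LPS libraries and 5743, 3121 and 5828 in LPS+MIC-1 libraries.

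Angptl4 is secreted and inhibits lipoprotein lipase. It was at 29.5, 49.8 and 51.4 FPKM in control, at 153, 113 and 177 with LPS and at 113, 137 and 114 with LPS+MIC-1. All treated libraries were above all controls. The Log2FC was 1.77 (SE 0.26, adjusted P-value 0.00342) for LPS and 1.505 (SE 0.26, adjusted P-value 0.00496) for LPS+MIC-1 against control. The call for LPS held under all 21 alternatives, and that for LPS+MIC-1 was lost only where every library was scaled to the same FPKM sum (Log2FC 0.85, adjusted P-value 0.0592).

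Lipc, hepatic lipase, hydrolyses triglyceride and phospholipid of lipoprotein remnants and HDL. It was listed at 13.1, 0 and 0 FPKM in control, at 4.54, 2.78 and 10.8 with LPS and at 7.37, 0 and 8.02 with LPS+MIC-1. Zeros and values above 3 FPKM occurred inside 2 groups. The same 3 libraries listed 12 genes at 0 that exceeded 3 FPKM in control library 1 and in libraries 1 and 3 of both treated groups, Lipc and the hepatocyte receptor Asgr1 among them. Ywhaz, used by every cell, did not exceed 2.19 FPKM in any liver library, so a value of 0 in this table may not be a level, and Lipc did not pass in any comparison.

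For no member could LPS+MIC-1 be told from LPS against the spread between libraries, which does not show that the levels were equal. With limma 0 of 10147 tested genes were called in LPS+MIC-1 against LPS, and 364 (3.59%) had an unadjusted P-value below 0.05, none of them a member. The FPKM ranges of LPS and LPS+MIC-1 overlapped for all 10 members, and 9.75% of tested genes had ranges that did not overlap, 5.1% higher and 4.64% lower. Apart from Lipc, Log2FC ran from -0.57 for Apoa4 to 0.29 for Apoa2, with adjusted P-values of 0.997 to 0.998 in limma. The interval was widest for Apoa4, from -2.05 to 0.91, so that differences of this size were not detectable. The interval was narrowest for Mttp, from -0.27 to 0.50, and for Lcat, from -0.22 to 0.58. With only the 2 closest libraries of each group, a choice made after seeing the data that itself narrows the spread, 1795 genes were called, among them Apoa2 higher (Log2FC 0.64) and Apoa5 and Angptl4 lower (-0.50 and -0.53).

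LPS+MIC-1 against control called 4 members higher, Apoa4, Apob, Lcat and Angptl4, and 0 lower with limma, where the 4 were also the members with an unadjusted P-value below 0.05, as were 48.4% of all tested genes. Of all tested genes 36.4% were called, 20.1% higher and 16.3% lower. Ranges did not overlap for 7 members, 5 higher and 2 lower, against 54.6% of tested genes, 30.5% higher and 24.1% lower. This comparison and that of LPS with control share the control libraries and are not independent.

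**Figure D3:**
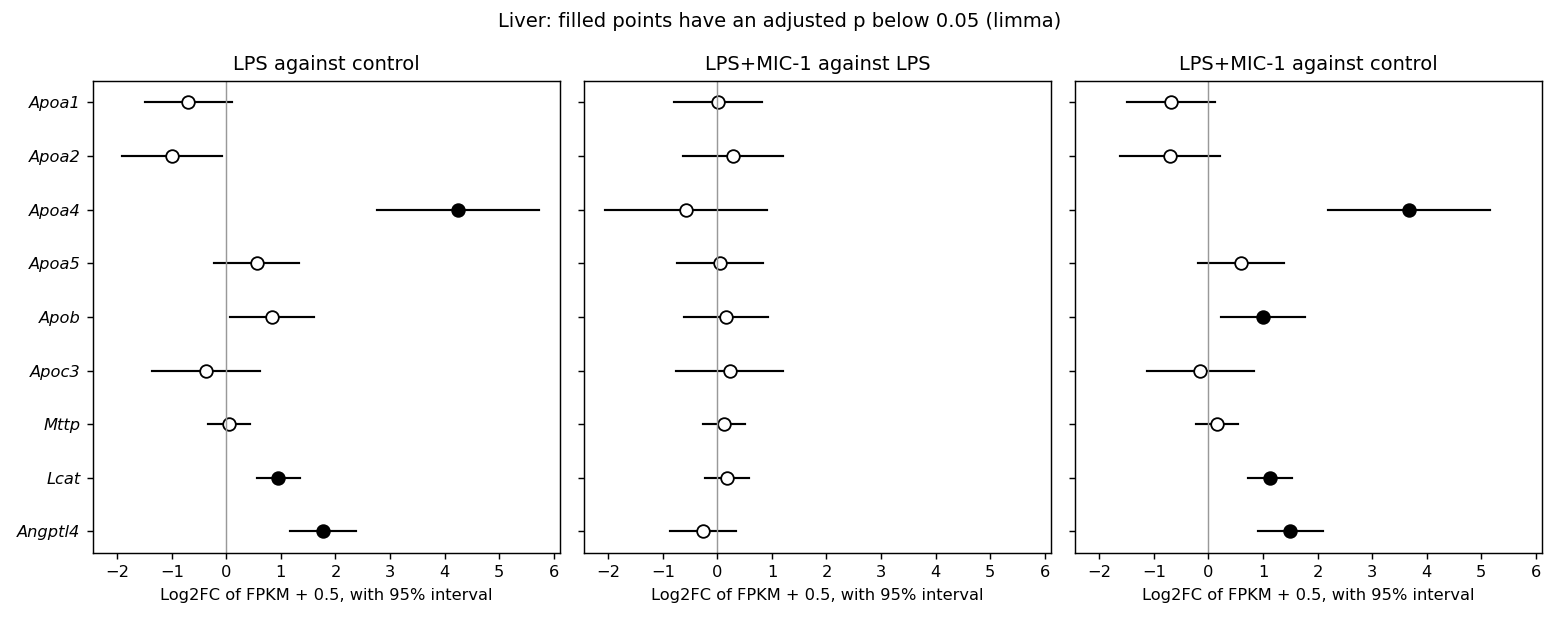
Log2FC of 9 genes in the 3 liver comparisons with 95% intervals, filled where the adjusted P-value was below 0.05, with Lipc left out because 3 of its values were listed at 0. Apoa4, Lcat and Angptl4 lie above 0 in both comparisons with control, and in LPS+MIC-1 against LPS all 9 intervals include 0.

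The FPKM of the 10 genes summed to 61599, 31170 and 30867 in control, to 21170, 35354 and 22116 with LPS and to 26163, 28405 and 27524 with LPS+MIC-1. Apoa1, Apoa2 and Apoc3 made up 97.0 to 98.1% of this sum in control and 87.4 to 94.4% with LPS. As a share of the FPKM sum of the library the genes held 8.12, 4.99 and 5.23% in control libraries, while the LPS libraries had 2.70, 4.12 and 2.49% and the LPS+MIC-1 libraries 2.55, 2.84 and 2.59%. The share was lower in all treated libraries than in all controls. In an exact two-sided permutation test over samples, which cannot go below 0.1 with 3 against 3, the summed FPKM gave p = 0.3 for LPS and p = 0.1 for LPS+MIC-1 against control, and the share gave p = 0.1 for both.

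**Figure D4:**
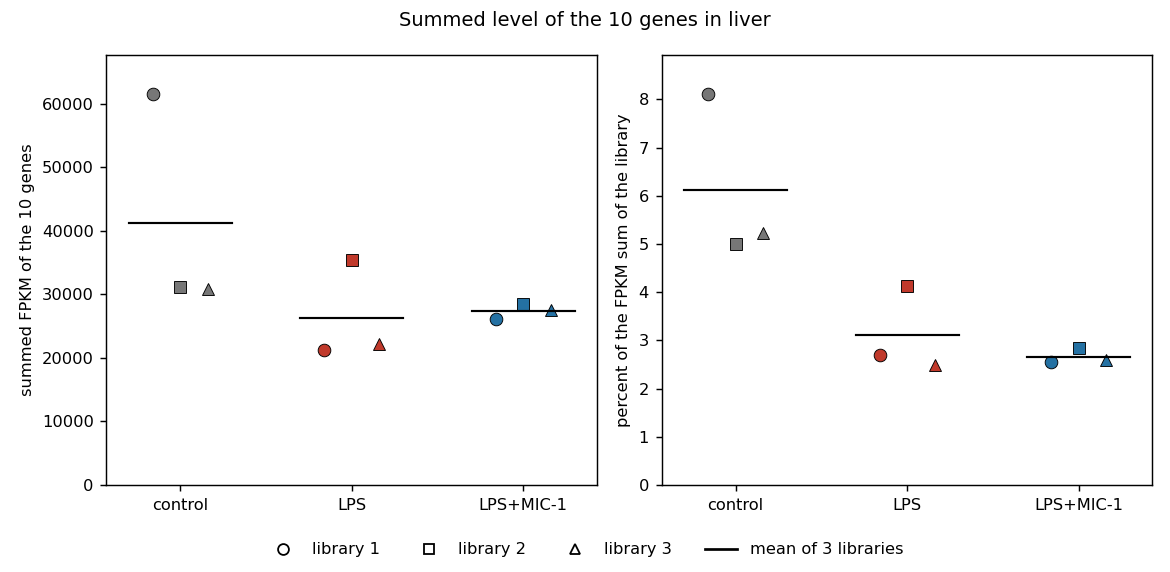
Summed FPKM of the 10 genes (left) and their percent of the FPKM sum of the library (right) in the 9 liver libraries, on linear axes from 0, with bars for the mean of 3 libraries. On the left LPS library 2 lies above 2 of the 3 controls, and on the right all treated libraries lie below all controls.

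Both scales differ because the FPKM of a library summed to 590303 to 758661 in control, 783886 to 887241 with LPS and 1000900 to 1063780 with LPS+MIC-1. Scaling every library to the same sum moved the median Log2FC of all tested genes by -0.32 for LPS and -0.58 for LPS+MIC-1 against control, and the share of calls that were higher from 55.3 to 31.2% and from 55.2 to 17.6%. On that scale Apoa1 and Apoa2 were called lower in both comparisons, at -1.06 and -1.36 for LPS, and Apoa4 stayed higher, at 3.89.

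Other genes of the pathway were read from 6 lists. Their counts of calls stand beside the 34.7% of all tested genes called in LPS against control, 19.2% higher and 15.5% lower. The lists of receptors, transcription factors and lipases, with 4 of 12, 6 of 20 and 3 of 11 called, were near the share in either direction. The list of HDL lipid loading, with 1 of 10 higher and 1 lower, was below it. No list was tested against these shares. Of 11 tested other apolipoproteins LPS raised 4 and lowered 2, with a median Log2FC of 0.63 beside 0.15 over all tested genes. Apom, the HDL carrier of sphingosine 1-phosphate, rose from a mean of 66.7 to 239 FPKM, and Apon from 254 to 647. Apool, a mitochondrial cristae protein in spite of its name, was listed at 0 to 11.3 FPKM (mean 3.78) in control and at 13.9 to 22.0 with LPS. As for Lipc, a listed 0 may not be a level. Apoc1 fell from 28680 to 11248 FPKM (Log2FC -1.59, adjusted P-value 0.0495) and Apoc4 from 7686 to 3163 (Log2FC -1.53, adjusted P-value 0.0308). The ranges of Apoc1 overlapped, at 17939 to 36358 FPKM in control and 5183 to 21841 with LPS. In LPS+MIC-1 against control 0 of these apolipoproteins were called lower, which is no return to control. With LPS+MIC-1 Apoc1 was at 12879 to 17131 FPKM, below all controls. Apoc4 was at 3334 to 4369 FPKM with LPS+MIC-1 and at 7158 to 8151 in control.

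Of 19 tested genes of lipoprotein assembly and secretion LPS raised 4 and lowered 8, with a median Log2FC of -0.32. Plin2, which coats lipid droplets, rose from 83.8 to 943 FPKM, Surf4, an export receptor of the endoplasmic reticulum, from 63.3 to 186, and P4hb, the protein disulfide isomerase that forms the Mttp complex, from 231 to 611. The carboxylesterases Ces3b, Ces1f and Ces1e, enzymes of the kind that mobilise stored triglyceride, fell by 2.599, 2.53 and 2.25 on the log2 scale. Ces3b went from 633 to 104 FPKM.

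Among lipases, cofactors and transfer proteins 0 of 11 tested were raised and 3 lowered, with a median Log2FC of -0.42. Among them were Pltp, the phospholipid transfer protein of HDL (108 to 10.9 FPKM), and Lpl, lipoprotein lipase (27.5 to 9.49 FPKM).

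Of 12 tested lipoprotein receptors and regulators LPS raised 3 and lowered 1, with a median Log2FC of 0.26. Sdc1, a heparan sulfate proteoglycan that binds remnants, rose from 22.6 to 75.1 FPKM, and Lsr, a lipolysis-stimulated receptor, from 96.1 to 242. Of 10 genes of HDL lipid loading 1 rose and 1 fell, with a median of 0.50. These were Atp5b, a subunit of the ATP synthase that also binds apolipoprotein A-I at the cell surface, from 178 to 355 FPKM, and Abcg5, a sterol exporter into bile, from 77.7 to 19.4. Of 20 tested transcription factors of apolipoprotein genes 2 rose, Foxa3 from 15.1 to 46.2 FPKM and Cebpb from 24.8 to 57.8, and 4 fell, with a median of -0.05. The largest decreases were those of the clock repressor Nr1d1 (44.7 to 3.23 FPKM), Ppargc1b (10.0 to 1.28) and Nr2f2 (19.5 to 9.44). In LPS+MIC-1 against LPS 0 genes of the 6 lists were called by limma, and 0 to 3 of each list had an unadjusted P-value below 0.05.

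Markers of other cells moved with the groups in part. LPS against control called 0 of 5 tested stellate and fibroblast markers and 1 of 5 cholangiocyte markers, the latter higher. Of 6 liver endothelial markers 2 were called higher and 2 lower. Of 8 tested neutrophil markers LPS raised 7 and lowered 1, and the summed level of the list was 37.0 to 52.8 FPKM in control, 352 to 451 with LPS and 192 to 463 with LPS+MIC-1. The Kupffer cell and macrophage list summed to 32.7 to 59.6 FPKM in control, 44.3 to 63.8 with LPS and 56.0 to 103 with LPS+MIC-1, with 1 of 6 tested markers called higher in LPS against control and 2 lower. Marco, a scavenger receptor, rose from 2.18 to 6.79 FPKM in control to 23.1 to 40.4 with LPS and was at 38.4 to 75.6 with LPS+MIC-1. Clec4f, which defines Kupffer cells, fell from 13.002 to 30.1 FPKM to 2.85 to 6.32 and was at 4.33 to 4.83 with LPS+MIC-1, and Vsig4 fell as well, from 3.02 to 6.70 FPKM to 1.22 to 1.497. The 10 hepatocyte markers summed to 32263 to 69084 FPKM in control, 38171 to 41358 with LPS and 33614 to 56451 with LPS+MIC-1. Alb was the most abundant of them in every library, and in LPS against control 1 of the 10 was called higher and 2 lower. The part of these cell markers in the results for the 10 genes was not tested.

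Each member was also set beside the gene outside the 10 whose log2(FPKM + 0.5) correlated best with it over the 9 liver libraries. This is a description in which the libraries share their groups. The best of the 10147 tested genes over 9 libraries can be high for any member, so r is no measure of a link. Apoa4 ran with Zkscan1 (r = 0.993), Angptl4 with the lipid droplet gene Plin4 (r = 0.992) and Apoa2 with Chchd10 (r = 0.992). Apoa1 ran with Hdhd3 (r = 0.972), Apoa5 with Tardbp (r = 0.974), Apob with Trpc4ap (r = 0.991) and Apoc3 with Slc6a13 (r = 0.962). The nearest gene was Smyd1 for Lcat (r = 0.995), Tmem85 for Mttp (r = 0.976) and 5730403B10Rik for Lipc (r = 0.975).

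In RAW264.7 cells the members were low. Csf1r, the receptor that defines macrophages, was at 108 to 423 FPKM in these libraries, lowest in LPS libraries 1 and 3 (109 and 108). Of the 7 listed Kupffer cell and macrophage markers 4 stayed at or below 1 FPKM in every macrophage library. Only 3 of the members had a mean above 1 FPKM, Apoa1 at 0.727 to 4.19, Apoa2 at 0 to 7.63 and Angptl4 at 0.309 to 7.71. The other 7 members were not tested. The hepatocyte product Alb, read in the same way, was at 1.09 to 5.46 FPKM there, in the range of Apoa1 and Apoa2. With limma 0 of the 3 tested members were called in LPS against control, where 0 of 9905 genes were called and 49.8% had an unadjusted P-value below 0.05, Angptl4 among them. The count of 0 rested on LPS library 2, since without it 7445 genes (75.2%) were called, with Angptl4 lower and Apoa2 higher. In LPS+MIC-1 against LPS and against control 0 of 3 were called at either threshold, while 21.6% of tested genes (10.2% higher, 11.4% lower) and 24.8% (11.8% higher, 13% lower) were called and 37.8 and 38.6% had an unadjusted P-value below 0.05.

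Angptl4 was at 6.52, 7.71 and 6.42 FPKM in control cells, at 0.657, 6.91 and 0.309 with LPS and at 2.22, 2.39 and 1.59 with LPS+MIC-1. LPS library 2 lay in the control range here, and over all tested genes it correlated with the control libraries at a mean r of 0.984 and with the other LPS libraries at 0.861, so that it goes against its label. With all libraries the Log2FC was -1.95 (SE 0.71, adjusted P-value 0.0777) for LPS against control, 0.41 (adjusted P-value 0.698) for LPS+MIC-1 against LPS and -1.53 (adjusted P-value 0.153) for LPS+MIC-1 against control. Without that library the values were -2.93, 1.39 and -1.53, with adjusted P-values of 9.01e-06, 0.000566 and 0.000248, and all 3 were called, as were 75.2%, 68% and 60.3% of all tested genes. Apoa2 was then also called in LPS against control (2.16, adjusted P-value 0.0389) and in LPS+MIC-1 against LPS (-2.37, adjusted P-value 0.0304). Scaling to the same FPKM sum moved the median Log2FC of all tested macrophage genes by -0.63 for LPS against control and 0.45 for LPS+MIC-1 against LPS, and Angptl4 was then at -2.37 and 0.64. For Angptl4 the LPS+MIC-1 libraries lay between the control libraries and LPS libraries 1 and 3. It was the only tested member whose LPS+MIC-1 and control ranges did not overlap, as for 66.4% of tested genes, 34.9% lower. The tested members had overlapping ranges in the other comparisons of the macrophage table. There 33.3% (LPS against control) and 36.1% (LPS+MIC-1 against LPS) of tested genes had ranges that did not overlap. Members below the filter were not counted.

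**Figure D5:**
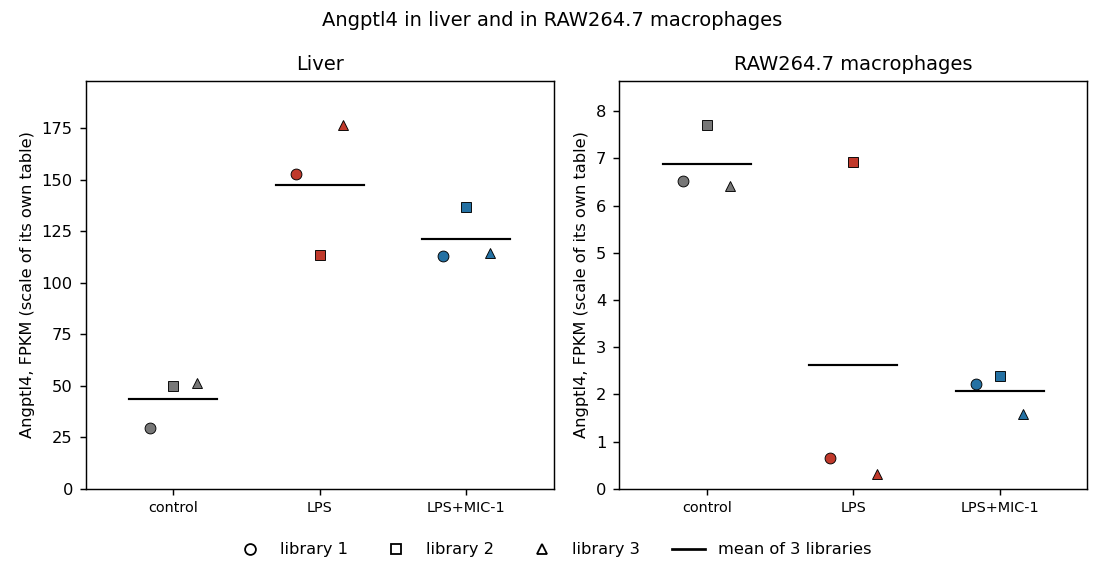
Angptl4 FPKM in liver (left) and RAW264.7 macrophages (right), each on the linear scale of its own table, with a symbol per library and bars for the mean of 3 libraries. All 6 treated liver libraries lie above the control libraries, and in macrophages all treated libraries but LPS library 2 lie below them.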

How the data were processed

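RNA-seq of 9 liver and 9 RAW264.7 libraries was used, 3 per group. Per the labels and methods, the authors pseudoaligned reads to mm9 RefSeq transcripts with kallisto 0.45.0, and the deposited FPKM values were computed by the authors with DESeq2 1.20.0 and scaled by size factors within each table. Another 6 deposited tables hold the authors' DESeq2 comparisons and were not used. All columns were matched to a group, 0 were left over.

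Each table was fitted alone with limma 3.58.1 (R 4.3.3) on log2(FPKM + 0.5), for genes with a mean FPKM above 1 (10147 in liver, 9905 in macrophages), with 3 groups in 1 fit, eBayes with trend and Benjamini-Hochberg adjustment over all tested genes. A gene was called below an adjusted P-value of 0.05. The fit was tested on simulated data. Named are all members, the 3 list genes with the largest absolute Log2FC per direction among those called in liver LPS against control (none were called in LPS+MIC-1 against LPS), the best correlated gene of each member, and Alb and Ttr. Some genes that this rule names are not reported here. Marker genes, Asgr1 and Ywhaz were named after their values were seen. The members and lists were chosen with earlier results of these data known. Motifs were searched with Python 3.11.15 in RefSeq promoters. Depth was read from the commonest low FPKM value of genes with a single transcript above 1000 bases, assuming fragments of 150 bases. It limits precision and covers counting error only. Alternatives were 13 planned kinds and 1 added after seeing the data.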

Additional observations from a re-analysis of the deposited data

Results flagged for a closer look

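Groups of 3 libraries are too small for a test of single outlying libraries. Values that moved in opposite directions in liver and in RAW264.7 cells, with every library of the first group on the same side of the mean of the second, are listed here. The difference between the tissues was not tested, since the tables were normalized separately.

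Angptl4 in LPS+MIC-1 against control gave a Log2FC of 1.505 in liver, which passed, and -1.53 in macrophages (adjusted P-value 0.153 in limma), which did not. At the same Log2FC it passed in macrophages with only the 2 groups in the limma fit (adjusted P-value 0.000287). It also passed without LPS library 2 (0.000248), where 60.3% of all tested genes were called. In LPS+MIC-1 against LPS Angptl4 gave -0.26 in liver and 0.41 in macrophages, neither of which passed. The mean FPKM of Angptl4 in macrophages went the other way than the Log2FC, at 2.07 with LPS+MIC-1 and 2.63 with LPS, where LPS library 2 was at 6.91, and without that library the Log2FC was 1.39. Apoa2 in LPS+MIC-1 against LPS gave 0.29 in liver and -1.18 in macrophages, where its level was 0 to 7.63 FPKM and 3 libraries were listed at 0.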

How the results depend on the processing

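No paired analysis was possible because the columns carry no replicate numbers. The shared direction of the libraries that stood apart in liver follows the treatment in part, since LPS library 2 was closer to control than the other LPS libraries, so it was not used as a block. Of the 627 alternative values for the Log2FC of single members in liver 565 kept their direction and side of the threshold, 19 gained and 15 lost a call and 28 changed sign, and of 171 in macrophages the numbers were 154, 7, 0 and 10. The members called in LPS against control stayed called under every other scaling, pseudocount, filter and left-out library tried, and Lcat (Log2FC 0.95) missed the rules that also ask for a Log2FC above 1.

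Rescaling to the same FPKM sum gave 2 members lower in liver LPS against control, and 1 higher and 3 lower in LPS+MIC-1 against control. It turned the sign of Mttp in LPS against control (-0.32), of Apoa1 (-0.28), Apoa2 (-0.0054), Apoa5 (-0.25), Apob (-0.13), Apoc3 (-0.067), Mttp (-0.17) and Lcat (-0.11) in LPS+MIC-1 against LPS, and of Apoa5 (-0.059) and Mttp (-0.49) in LPS+MIC-1 against control. In macrophages it turned Apoa1 to -0.20 in LPS against control and 0.031 in LPS+MIC-1 against LPS, and gave 1421 called genes in LPS+MIC-1 against control. The share of the library sum moved the log2 ratio of the summed members in LPS+MIC-1 against control from -0.59 to -1.20. Rescaling by the median of ratios turned Mttp to -0.044 in LPS against control.

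Genes called in liver were 1862 (LPS) and 1961 (LPS+MIC-1 against control) with a mean FPKM above 10, a setting that tests fewer genes, and 1102 and 1370 at an adjusted P-value under 0.01 with a Log2FC beyond 1 either way. In LPS+MIC-1 against LPS the count was 1 with a pseudocount of 1 or with eBayes without trend, 2 with no filter and 100 at an unadjusted P-value under 0.05 with a Log2FC beyond 1 either way. In macrophages LPS against control gave 5 with no filter, 1 without trend, and 1901 genes and 1 member lower (9.55% of tested genes) by that unadjusted rule. LPS+MIC-1 against LPS gave 554 with only the 2 groups, and 823, 383 and 1131 with that fold minimum and an adjusted P-value under 0.05, one under 0.01, or an unadjusted one under 0.05. LPS+MIC-1 against control gave 5764 genes and 1 member lower with only the 2 groups, and 1172, 554 and 1480 under these rules. The main fit takes 1 estimate of the spread over 3 groups. Macrophage LPS library 2 therefore also enters the P-values of LPS+MIC-1 against control, though not its Log2FC. The cause of these shifts was not tested.

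With only the 2 closest libraries of each liver group, chosen after seeing the data by a rule that itself narrows the spread, LPS against control called 6857 genes, 6 members higher and 2 lower. In the comparison of LPS+MIC-1 with LPS the numbers were 1795, 1 and 2, and for LPS+MIC-1 against control they were 6573, 8 and 1. Signs turned for Apoc3 in both comparisons with control (0.12 and 0.55) and for Apoa5 (-0.50) and Lipc (0.12) in LPS+MIC-1 against LPS.

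Leaving out each library in turn gave 1396 to 4967 called genes in liver LPS against control, the extremes without LPS libraries 3 and 2, and 1944, 1968 and 1664 without control libraries 2 and 3 and LPS library 1. Members higher ranged from 3 to 5 and lower from 0 to 2, the highest without LPS library 2. LPS+MIC-1 against LPS ranged from 0 to 36 genes and LPS+MIC-1 against control from 2035 to 4585. The log2 ratio of the summed members there ranged from -0.76 to -0.18, the latter without control library 1. In macrophages the ranges were 0 to 7445 genes with 0 to 1 member higher and 0 to 1 lower, 733 to 6737 genes with 0 to 1 and 0 to 1, and 890 to 5972 genes with 0 to 1 lower, the highest without LPS library 2. Members whose sign turned were, in liver LPS against control, Apoc3 (-0.66 to 0.16) and Mttp (-0.039 to 0.18). In LPS+MIC-1 against LPS they were Apoa1 (-0.17 to 0.31), Apoa5 (-0.33 to 0.25), Apob (-0.12 to 0.47) and Lipc (-1.52 to 0.52), and in LPS+MIC-1 against control Apoc3 (-0.43 to 0.39). In macrophages they were Apoa1 in LPS against control (-0.12 to 0.67), Apoa1 (-0.61 to 0.10) and Angptl4 (-0.20 to 1.39) in LPS+MIC-1 against LPS, and Apoa1 (-0.31 to 0.31) and Apoa2 (-0.91 to 0.39) in LPS+MIC-1 against control.

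With 3 libraries a group and a value of a single read of up to 0.176 FPKM at 1 kb, differences of the size seen for Mttp were not detectable against the spread in liver.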
